A study of Rattus norvegicus with 12 samples.

Results

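Older and younger rats were compared within the hemisphere that received an intracerebral hemorrhage (ICH). The comparison used the 6 ICH samples of a series of 12, namely 3 at 22 months and 3 at 13 months, and the 18177 genes of 24102 that had at least 10 reads summed over these 6 samples. The study injected 75 µL of autologous blood into the left striatum of male Sprague Dawley rats, and the right hemisphere served as the contralateral tissue. Polyadenylated RNA was sequenced 3 days later from samples whose tissue label was only brain, so the region taken from each hemisphere was not stated. The older group carries the age 21 months in the sample labels and 22 months in the protocol. Every replicate was a separate rat, and the ICH and contralateral samples of a given number and age were taken to be the same rat, although the labels share only the number.

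The striatum consists mostly of projection neurons that respond to dopamine, and genes such as the dopamine receptors Drd1 and Drd2 are read mainly in these cells. Blood in the tissue is followed by a response of microglia, of cells that enter from the blood and of astrocytes. Cells present protein fragments to T cells on class I and class II molecules of the major histocompatibility complex (MHC), called RT1 in the rat, whose genes lie on chromosome 20 and differ in sequence and number between animals.

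Values below are CPM, the counts of a gene scaled to the same library total, of the 3 rats at 13 months and then of the 3 rats at 22 months, in the order of their numbers. Read totals were 28182156, 27441008 and 28225011 at 13 months and 27612422, 23814430 and 28072003 at 22 months. A floor of 3 reads corresponded to 0.106 to 0.126 CPM in these libraries. The ICH libraries did not form 2 clear groups by age. The first principal component held 49.0% of the variance, and its values were -58.7, -48.1 and 30.8 at 13 months and -20.5, 91.7 and 4.82 at 22 months. Rat 3 of the 13-month group therefore lay among the older rats. Rat 2 of the 22-month group lay farthest out and had the lowest mean rank correlation with the other ICH libraries (0.962, against 0.968 to 0.980 for the other libraries). Rat 1 of the 22-month group held 41 genes that were read almost only there. Among the contralateral libraries, rat 2 of the 13-month group stood apart with 0.789% of reads from mitochondrially encoded genes, where the other 11 libraries of the series had 7.06 to 12.6%.

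No gene passed an adjusted p under 0.05 between the ages in ICH tissue (edgeR, 0 of 18177 genes, 0%), while 651 genes had an unadjusted p under 0.05. On the same genes DESeq2 passed 41 and the older exact test of edgeR passed 38. A fit to all 12 samples passed 6 genes, with 903 at an unadjusted p under 0.05. In the 6-sample fit the lowest adjusted p was 0.0767. As no gene passed, differences below are stated as higher or lower values and not as changes. The fold changes over all genes were centered on 0, with 9208 positive, 8969 negative and a median log2 fold change of 0.00.

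At the threshold of the study, which asked for an unadjusted p under 0.01 and a log2 fold change beyond 1 in either direction, edgeR gave 80 genes. Of these, 56 were higher at 22 months (0.308% of the genes tested) and 24 were lower (0.132%). DESeq2 gave 147 genes at this threshold, and the exact test of edgeR gave 160. The number depended strongly on single rats. It was 45 without rat 1 and 40 without rat 2 of the 13-month group, and 194 without rat 3 of that group. It was 218 without rat 3 of the 22-month group. Which direction prevailed depended on the same rats: 70.0% of the 80 genes were higher at 22 months, against 38.1% without rat 3 of the 13-month group and 30.7% without rat 3 of the 22-month group. Of the 80 genes, 53 and 51 were also past the threshold in those last fits. A looser description, that all 3 rats of one age lay above all 3 of the other, held for 944 genes higher at 22 months (5.19%) and 502 genes lower (2.76%).

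As the 2 hemispheres are taken to come from the same rats, their age differences are not separate evidence. In contralateral tissue, 7 genes passed an adjusted p under 0.05 (edgeR, 0.0385% of 18177), with 732 at an unadjusted p under 0.05 and 37 passing in DESeq2. The 7 became 3 or 4 in the fits that left out rat 1, 2 or 3 of the 13-month group or rat 1 or 2 of the 22-month group, and 2 without rat 3 of the 22-month group. They were RT1-N2 and Krt71, which were higher, and RT1-CE16, RT1-A3, Rps2-ps2, AABR07006894.1 and RGD1562652, which were lower. The last is named only because it passed there, and all 7 also separated the ages in the same direction in ICH tissue. In contralateral tissue 980 genes were higher at 22 months in all 3 rats (5.39%) and 872 were lower (4.8%). Of the 56 genes that were higher in ICH tissue at the threshold of the study, 51 also had a positive contralateral fold change and 30 had contralateral groups that did not overlap. Of the 24 lower genes the counts were 21 and 10. The share of all genes tested with the same sign in both hemispheres was not counted. Whether 51 and 21 are more than that share is therefore not known. Whether the age difference itself was another in ICH than in contralateral tissue was tested by the interaction of age and hemisphere, which no gene passed in edgeR (0%) or DESeq2, with 264 genes at an unadjusted p under 0.05 in edgeR.

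**Figure D1:**
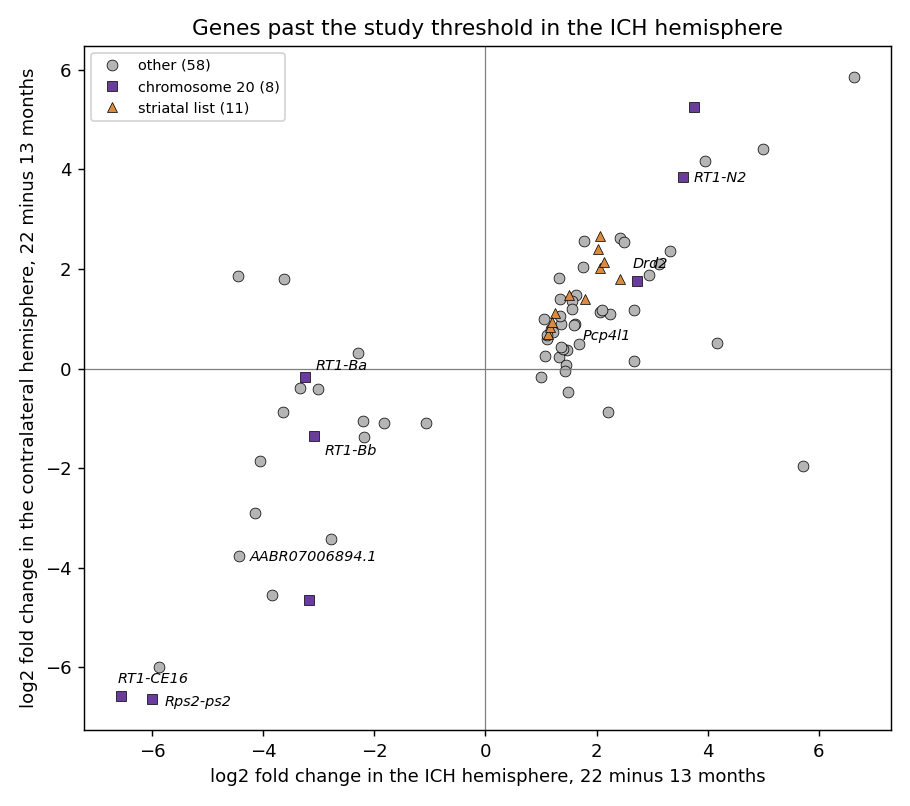
Log2 fold change between the ages in the ICH hemisphere (horizontal) and in the contralateral hemisphere (vertical) for 77 of the 80 genes past the threshold of the study. The 3 genes without reads in any older ICH sample are left out, and the hemispheres are taken to come from the same rats.

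Of all lists, that of striatal projection neurons had the most genes higher at 22 months. Of the 19 genes listed for these neurons, 18 were tested, and all 18 had a positive fold change. Their median log2 fold change was 1.54, against 0.00 for all genes tested. At the threshold of the study 11 of the 18 were higher and 0 lower, and in 15 every older rat was above every younger rat. Of all genes tested, 0.308% were higher at that threshold, and 5.19% were higher in every older rat. Summed over the list, the level was 548, 612 and 836 CPM at 13 months and 1228, 2769 and 1274 at 22 months (exact permutation p 0.1, the smallest that 3 against 3 samples allow). The sums of the 2 ages did not overlap, and rat 2 of the older group, which also stood apart from the other libraries, was the highest by far. Ppp1r1b supplied 25.6% of the summed level, so the sum did not rest on that gene alone. The count of 11 became 5 without rat 1 or without rat 2 of the 13-month group and 7 without rat 2 of the 22-month group, where the median was 0.97.

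Meis2, the member with the smallest p, was at 42.6, 41.6 and 45.3 CPM at 13 months and 93.3, 114.1 and 77.1 at 22 months. The log2 fold change of Meis2 was 1.13 (SE 0.16) with an edgeR adjusted p of 0.414. Over the alternatives and the fits that left out 1 library, the adjusted p ran from 4.12e-05 to 1.00. The younger rats were close to each other, and all of the older rats lay above them. Ppp1r1b, the member with the most reads, was at 141.5, 141.0 and 200.6 at 13 months and 299, 753.8 and 325.3 at 22 months. The log2 fold change of Ppp1r1b was 1.51 (SE 0.39) with an edgeR adjusted p of 0.902, ranging from 0.0571 to 1.00 over the same fits. Here too the groups were separate, with rat 2 of the older group far above the others, and without that rat the log2 fold change was 0.95.

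Further members were chosen after their values were seen. Drd1 was at 8.91, 9.56 and 11.0 CPM at 13 months and 30.4, 62.1 and 30.3 at 22 months, a log2 fold change of 2.06 (SE 0.32). Drd2 was at 5.04, 6.55 and 8.48 at 13 months and 20.8, 59.2 and 27.4 at 22 months, a log2 fold change of 2.42 (SE 0.43). All older rats were above all younger rats for both receptors, and rat 2 of the older group was again the highest. Tac1 was at 12.1, 16.1 and 24.4 at 13 months and 51.8, 83.5 and 46.3 at 22 months, a log2 fold change of 1.79. The ages did not overlap in Tac1, nor in Adora2a, which had a log2 fold change of 2.03. Penk had a log2 fold change of 1.56 and passed the separation of the groups but not the threshold of the study. The neuropeptide gene Pdyn (0.95) and the transcription factor gene Foxp1 (0.19) overlapped between the ages.

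**Figure D2:**
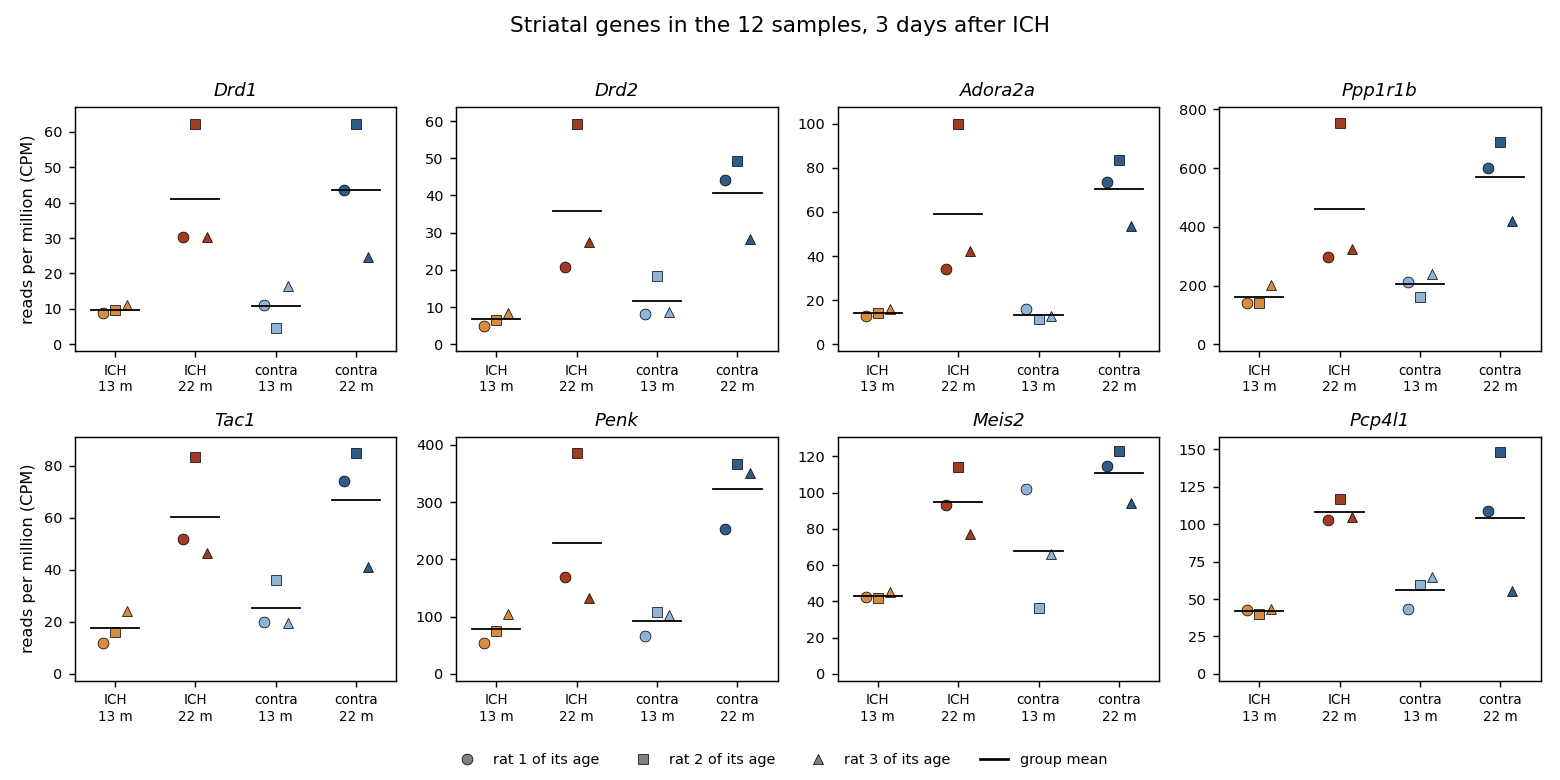
CPM of 8 genes, of which all but Pcp4l1 are in the striatal list, in all 12 samples. Circle, square and triangle are rats 1, 2 and 3 of their age, and lines are group means.

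With 1 library left out at a time, 22 of the 36 lists kept the sign of their median, that of striatal neurons among them, and 14 did not. The same list was higher in the contralateral hemisphere of the older rats, where the median log2 fold change was 1.48 and 14 of the 18 genes did not overlap between the ages. Of all genes tested, 5.39% were higher there in every older rat. Contralateral sums over the striatal list were 846, 722 and 888 CPM at 13 months and 2166, 2633 and 1609 at 22 months. The contralateral log2 fold change was 2.02 for Drd1 and 1.79 for Drd2, and the interactions were 0.02 and 0.61 (edgeR, adjusted p 1.00 for each). Within bulk tissue, a larger share of striatal neurons in the sample cannot be told apart from more RNA of these genes in each neuron, and this holds for every list below.

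Genes of other neurons differed less. Among 13 genes tested for cortical glutamatergic neurons the median log2 fold change was 0.10, and the only member past the threshold of the study was Bcl11b (1.18), a gene that striatal projection neurons also express. Slc17a7, the member with the most reads, had a log2 fold change of 0.10 and was at 881.3, 685.9 and 1091 CPM at 13 months and 987.8, 1137 and 732.7 at 22 months. The ages overlapped for this gene. The median of this list was -0.0427 without rat 2 of the 22-month group and 0.35 without rat 3 of the 13-month group. The median was 0.38 for 13 interneuron genes and 0.20 for 18 synaptic and structural genes. Of these 18, 16 were positive, 0 were higher in every older rat and 1 was lower in every older rat, against 2.76% of all genes tested. Without rat 1 of the 13-month group the medians of the interneuron and synaptic lists were 0.20 and 0.0590, and without rat 3 of that group 0.63 and 0.42. With all libraries the median was 0.41 for 14 immediate early genes, of which 13 were positive, and in none of these 3 lists did a gene pass the threshold of the study. For immediate early genes the median was -0.18 without rat 2 of the 22-month group and 1.04 without rat 3 of the 13-month group. Members with the smallest p and with the most reads overlapped between the ages in these 3 lists, with log2 fold changes in parentheses: Nos1 (0.63) and Gad2 (0.46) of interneurons, Dlg4 (0.45) and Snap25 (0.17) of synapses, and the immediate early genes Fosb (0.63) and Egr1 (0.49). Among 20 genes of thalamus and hypothalamus the median was -0.22, with -0.70 without rat 1 and 0.0343 without rat 3 of the 13-month group. Prkcd, the most read of them, was at -0.60 in log2 with overlap, and 1 gene, Hdc, was lower in every older rat. Hdc was at 1.74, 7.53 and 2.84 at 13 months and 0.292, 0.129 and 1.57 at 22 months.

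Oxt and Avp, both genes of the hypothalamus, differed widely between single ICH samples of the same age. Oxt, chosen after its values were seen, was at 2.24, 10.4 and 144.7 CPM at 13 months and 121.1, 0.129 and 0.215 at 22 months. Avp, chosen in the same way, was at 3.02, 8.09 and 102.9 at 13 months and 62.7, 0.775 and 0.430 at 22 months. Both genes were high in rat 3 of the younger and rat 1 of the older group and low in the remaining 4. In contralateral tissue both were high only in rats 1 and 2 of the older group. Oxt was there at 5.12, 0 and 0.192 at 13 months and 58.4, 90.5 and 0.492 at 22 months, and Avp at 1.11, 1.90 and 0.431 and then 42.9, 92.9 and 1.25. Contralateral groups overlapped for both genes, as rat 3 of the older group was low. The share of striatum, hypothalamus or other regions in each sample was not recorded, and a difference in the tissue taken cannot be told apart from a difference in the living striatum.

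Among the 6 genes with the smallest p that were higher at 22 months and did not overlap, Pcp4l1 was at 42.9, 40.1 and 43.6 CPM at 13 months and 102.5, 116.9 and 104.9 at 22 months. The fold change of Pcp4l1 was 1.36 in log2 (SE 0.12) with an edgeR adjusted p of 0.0767. That adjusted p ran from 2.13e-18 to 0.952 over the alternatives and the fits that left out 1 library. All rats of an age were close together, and the contralateral log2 fold change of 0.90 came with overlapping groups. Shisa8 was at 1.95, 1.40 and 1.49 at 13 months and 6.93, 7.32 and 5.91 at 22 months, a log2 fold change of 2.05. Unc13c was at 12.8, 14.9 and 14.2 at 13 months and 29.6, 48.2 and 38.6 at 22 months, a log2 fold change of 1.47. The ages were well apart in both genes in ICH tissue. Contralaterally the groups stayed apart for Shisa8 (1.14) but overlapped for Unc13c (0.36). That overlap came only from rat 2 of the 13-month group (72.8 CPM), whose contralateral library stood apart, as the other younger rats were at 18.9 and 16.9 and the older rats at 41.3, 46.4 and 52.1. Krt71 was at 5.04, 6.80 and 6.46 at 13 months and 22.1, 25.9 and 14.6 at 22 months, a log2 fold change of 1.77. Its contralateral log2 fold change was 2.56 (edgeR, adjusted p 0.0468), with 4.43, 3.34 and 5.46 at 13 months and 14.2, 24.8 and 38.9 at 22 months. The remaining genes of these 6 were Meis2 and RT1-N2.

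Class I genes of the MHC were among the genes with the largest differences in both directions. RT1-CE16 was at 256.9, 176.6 and 101.9 CPM at 13 months and 3.21, 0.517 and 1.86 at 22 months. The fold change of RT1-CE16 was -6.56 in log2 (SE 0.70) with an edgeR adjusted p of 0.162. That adjusted p ran from 4.71e-27 to 0.952 over the alternatives and the fits that left out 1 library. The gene was abundant in every younger rat and nearly absent from every older rat. RT1-A3 was at 14.3, 9.39 and 5.47 at 13 months and had 0 reads in every older ICH sample, which put it at least 85.4-fold lower against the floor of 3 reads. RT1-N2 went the other way, with 1.74, 1.26 and 1.24 at 13 months and 18.8, 12.4 and 18.9 at 22 months. The fold change of RT1-N2 was 3.56 in log2 (SE 0.28) with an edgeR adjusted p of 0.0767, which ran from 4.85e-27 to 0.952 over the same fits. Groups were far apart for all 3 genes.

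The differences of RT1-CE16 and RT1-N2 were of about the same size in the uninjured hemisphere, with contralateral log2 fold changes of -6.57 and 3.84. RT1-A3 had 0 contralateral reads in every older rat as well, against 4.21, 2.58 and 2.35 CPM at 13 months, so only a bound exists for it in either hemisphere. RT1-A1, chosen after its values were seen, was at 258.2, 159.9 and 96.9 CPM at 13 months and 54.0, 6.42 and 14.3 at 22 months, a log2 fold change of -2.78 (contralateral -2.77). RT1-A2, chosen in the same way, was at 261.9, 186.7 and 95.1 at 13 months and 241.0, 41.5 and 127.4 at 22 months, a log2 fold change of -0.41 with overlapping ages. Single class I genes therefore differed in opposite directions or little. Over the 23 class I genes tested of 34 listed, 2 were past the threshold of the study in each direction. Of all genes tested, 0.308% were higher and 0.132% lower at that threshold. The class I median was -0.09, against 0.00 for all genes tested. Its sign depended on single rats, with -1.30 without rat 1 and 0.20 without rat 2 of the 22-month group. Over the 11 entries tested for the loading of peptides onto class I molecules, the median was -0.41 and none separated the ages. That median was -0.97 without rat 1 and -0.12 without rat 2 of the 22-month group. The entry with the smallest p was of Tap2 (1.10, with 0.37 for another entry of the same name), and the most read was Calr (-0.16). The light chain gene B2m, which is not on chromosome 20, was at 1802, 1509 and 802.6 at 13 months and 1398, 377.1 and 907.8 at 22 months, a log2 fold change of -0.62 with overlap. As reads that matched several places were discarded and class I genes differ in sequence between animals, a low count of a class I gene can mean another gene version instead of less RNA. Litter and MHC type of the rats were not given, so age cannot be told apart from descent for these genes.

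**Figure D3:**
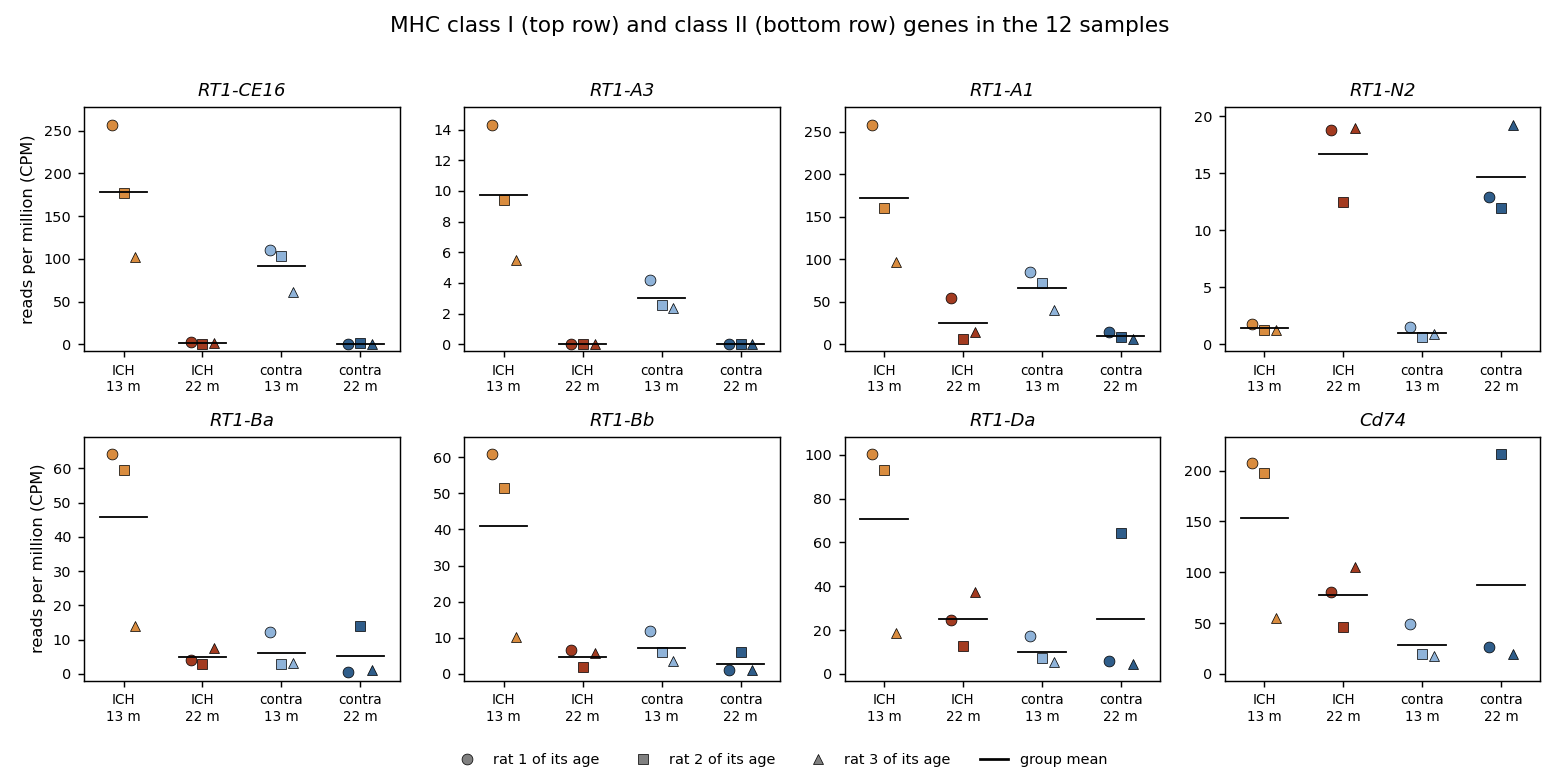
CPM of 4 class I genes (upper panels) and of 4 class II pathway genes (lower panels) in all 12 samples. Circle, square and triangle are rats 1, 2 and 3 of their age, and lines are group means.

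The other genes among the 6 with the smallest p that were lower at 22 months and did not overlap were pseudogenes, a noncoding RNA gene and a receptor gene. Rps2-ps2, a pseudogene on chromosome 20, had 233 reads at 13 months and 3 at 22 months, 73.6-fold fewer relative to depth, with a 95% counting interval of 24.9 to 360. AABR07006894.1, a long noncoding RNA gene, was at 3.09, 2.98 and 5.86 CPM at 13 months and 0.256, 0.172 and 0.107 at 22 months, a log2 fold change of -4.44. LOC100363537, a pseudogene, was at 17.5, 14.7 and 10.2 at 13 months and 4.01, 1.85 and 3.26 at 22 months, a log2 fold change of -2.21. No older rat reached the range of the younger rats in any of these genes. Vom2r44 was at 3.23, 2.35 and 2.80 at 13 months and 0.657, 0.215 and 0.322 at 22 months, a log2 fold change of -2.79. Chromosome 20 carried 7 of the 24 genes that were lower (29.2%) and 5 of the 56 that were higher (8.93%) at the threshold of the study, and 530 of the 18177 genes tested (2.92%).

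Class II genes were lower in the older ICH tissue in sign, but with much variation between rats. All 10 class II pathway genes tested had a negative fold change, with a median of -1.27 against 0.00 for all genes tested. At the threshold of the study 2 were lower, and in 3 every older rat was below every younger rat. Of all genes tested, 0.132% were lower at that threshold, and 2.76% were lower in every older rat. Sums over the list were 488, 452 and 110.0 CPM at 13 months and 132, 69.5 and 169.9 at 22 months (exact permutation p 0.3). Rats 1 and 2 of the younger group were high, while rat 3 of that group lay within the older rats. The count of 2 became 5 without rat 3 of the 13-month group and 1 without rat 1 or 2 of that group or rat 2 or 3 of the 22-month group. The median was -1.68 without rat 3 of the 13-month group and -0.98 without rat 2 of the 22-month group. Cd74 supplied 48.7% of the summed level.

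RT1-Ba was at 64.1, 59.5 and 14.0 CPM at 13 months and 4.16, 2.76 and 7.55 at 22 months, a log2 fold change of -3.24 (SE 0.65). RT1-Bb, chosen after its values were seen, was at 60.8, 51.5 and 10.2 at 13 months and 6.71, 1.94 and 5.66 at 22 months, a log2 fold change of -3.09 (SE 0.74). These are the 2 chains of a single class II molecule, and for both the lowest younger rat was still above the highest older rat. RT1-Da was at 100.4, 93.3 and 18.9 at 13 months and 24.8, 12.8 and 37.4 at 22 months. Cd74, the invariant chain, was at 207.2, 197.7 and 55.5 at 13 months and 80.9, 45.9 and 104.7 at 22 months, a log2 fold change of -0.99. In these 2 genes rat 3 of the younger group was within the older rats. The regulator Ciita, chosen after its values were seen like RT1-Da, had a log2 fold change of -1.45 and the same overlap.

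Class II genes share a promoter sequence that a common set of factors binds, and the promoters of RT1-Ba and RT1-Bb, which had the lowest fold changes, are shown with those of RT1-Da and RT1-Db1, both chosen after their values were seen, for comparison. Of the 10 class II genes tested, 8 had an entry in the RefSeq promoters of the assembly GRCr8, which reach from 250 bases before to 50 after the start of a gene. The inverted CCAAT sequence CTGATTGG, in capitals, was present in either orientation in 5 of the 8 (RT1-Ba, RT1-Bb, RT1-Da, RT1-Db1 and RT1-DOa) and absent from Cd74, RT1-DMa and RT1-DOb. Of all 33469 promoters, 1172 carried it (3.5%). It began 46 bases before the start of RT1-Ba (chr20:4576807-4577106, plus strand), 64 before that of RT1-Bb (chr20:4604069-4604368, minus strand), 52 before that of RT1-Da (chr20:4515165-4515464, plus strand) and 83 before that of RT1-Db1 (chr20:4560113-4560412, minus strand). Of the 3 genes whose ages did not overlap, RT1-Ba and RT1-Bb carried the sequence and RT1-DOb did not, while RT1-Da and RT1-Db1 carried it although their ages overlapped.
RT1-Ba: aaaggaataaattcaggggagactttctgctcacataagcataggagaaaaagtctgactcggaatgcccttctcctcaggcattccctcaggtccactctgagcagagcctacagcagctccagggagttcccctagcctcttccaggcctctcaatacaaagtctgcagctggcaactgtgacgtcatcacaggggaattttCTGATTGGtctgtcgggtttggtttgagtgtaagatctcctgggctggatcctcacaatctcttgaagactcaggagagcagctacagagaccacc
RT1-Bb: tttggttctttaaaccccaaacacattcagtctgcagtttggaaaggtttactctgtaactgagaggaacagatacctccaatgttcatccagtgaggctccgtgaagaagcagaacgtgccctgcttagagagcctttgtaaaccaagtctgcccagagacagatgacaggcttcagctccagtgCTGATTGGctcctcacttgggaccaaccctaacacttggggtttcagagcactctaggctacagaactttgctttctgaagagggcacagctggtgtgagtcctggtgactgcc
RT1-Da: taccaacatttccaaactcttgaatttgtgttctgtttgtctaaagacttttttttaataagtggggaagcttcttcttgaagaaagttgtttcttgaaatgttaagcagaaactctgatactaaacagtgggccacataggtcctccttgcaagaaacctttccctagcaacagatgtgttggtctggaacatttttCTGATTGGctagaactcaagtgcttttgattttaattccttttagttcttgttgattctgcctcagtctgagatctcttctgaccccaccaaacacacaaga
RT1-Db1: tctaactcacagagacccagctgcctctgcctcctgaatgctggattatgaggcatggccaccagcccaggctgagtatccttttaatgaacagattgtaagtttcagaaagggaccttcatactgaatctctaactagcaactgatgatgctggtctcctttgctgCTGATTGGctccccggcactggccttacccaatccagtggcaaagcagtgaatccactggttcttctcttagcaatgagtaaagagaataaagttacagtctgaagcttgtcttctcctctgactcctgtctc

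In contralateral tissue the class II median was -0.15. The summed level there was 101.2, 42.6 and 34.7 CPM at 13 months and 38.4, 328.1 and 29.4 at 22 months, so that a single older rat exceeded all others. The interaction was -3.11 for RT1-Ba and -1.76 for RT1-Bb (edgeR, adjusted p 1.00 for each), and neither passed.

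Genes of activated microglia and macrophages were lower at 22 months in sign only. All 26 genes tested were negative, with a median log2 fold change of -0.93, yet 0 passed the threshold of the study. Only 1, Lpl (-0.21), which is named after its values were seen, did not overlap between the ages. Among all genes tested, 2.76% were lower in every older rat. Summed levels were 23270, 15680 and 5669 CPM at 13 months and 10930, 4655 and 8572 at 22 months (exact permutation p 0.4). The younger group held both the highest rats and 1 of the lowest. The median was -1.67 without rat 1 of the 22-month group and -0.50 without rat 1 of the 13-month group. Without rat 3 of the 13-month group, 2 members passed the threshold of the study. Apoe, which supplied the largest share of the sum, was at 7711, 5986 and 3097 at 13 months and 4288, 2992 and 4130 at 22 months, a log2 fold change of -0.56. Cd36, the member with the smallest p, had a log2 fold change of -2.48 with overlap. Gpnmb, chosen after its values were seen, was at 2793, 1342 and 102.2 at 13 months and 486.2, 58.2 and 434.3 at 22 months, a log2 fold change of -2.11. Its range within the younger rats exceeded the difference between the ages. The contralateral median of the list was -0.48.

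**Figure D4:**
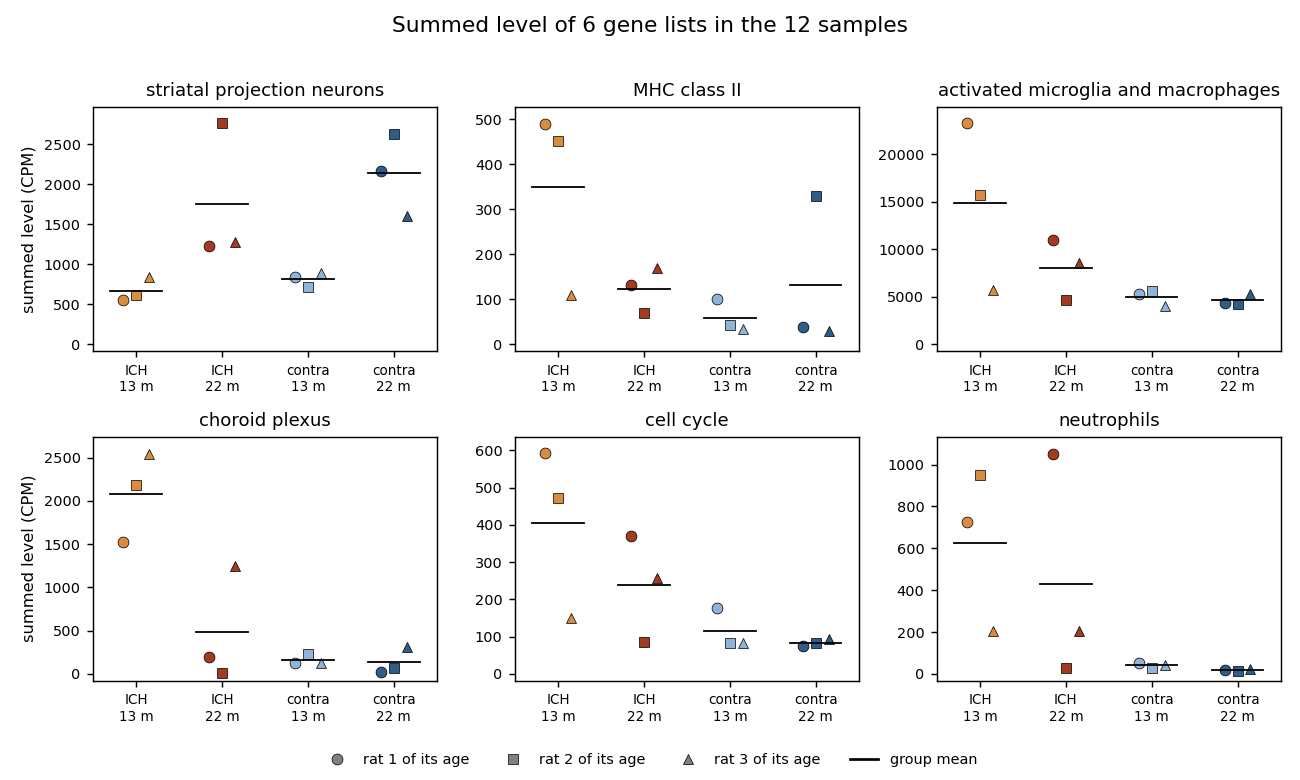
Summed CPM of 6 gene lists in all 12 samples. Circle, square and triangle are rats 1, 2 and 3 of their age, and lines are group means.

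Genes of homeostatic microglia differed less, with a median of -0.31 over 15 genes, which became -0.47 without rat 1 and -0.0765 without rat 2 of the 22-month group. Selplg, the member with the smallest p, was at 66.0, 47.3 and 41.8 CPM at 13 months and 32.2, 35.1 and 35.8 at 22 months, a log2 fold change of -0.59. No older rat reached the younger rats in Selplg, although the gap was narrow. Csf1r was at 645.1, 558.7 and 259.3 at 13 months and 525.9, 189.9 and 404.3 at 22 months, with overlap.

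In ICH tissue, genes of cells from the blood overlapped between the ages in every list. The neutrophil list summed to 726.1, 948.1 and 204.5 CPM at 13 months and 1049, 29.6 and 205.8 at 22 months. The highest and the lowest rat were both 22 months old, and Lcn2, which reactive astrocytes also express, supplied 84.5% of the sum. Monocyte genes summed to 450.1, 519.1 and 278.6 at 13 months and 413.2, 283.6 and 268.7 at 22 months. The exact permutation p of the sums was 0.7 for neutrophils and for B and plasma cells, 0.5 for T and NK cells and 0.3 for monocytes. The median was -0.76 over 16 neutrophil genes, -0.66 over 11 monocyte genes and -0.86 over 20 genes of T and NK cells. It was -0.42 over 11 genes of B and plasma cells. Without rat 2 of the 13-month group the median was 0.0104 for T and NK cells and 1.04 for B and plasma cells, and without rat 1 of the 22-month group it was -1.96 for neutrophils. Without rat 1 of the 22-month group it was also lower for monocytes (-0.88), T and NK cells (-1.52) and B and plasma cells (-0.94). Without rat 2 of the 13-month group it was -0.61 for neutrophils and -0.25 for monocytes. Log2 fold changes of the members with the smallest p were -0.76 for Mmp9 of neutrophils, -0.66 for Ace of monocytes, -2.38 for Cd2 of T and NK cells and 1.87 for Igkc of B and plasma cells. Those of the members with the most reads were -0.46 for Lcn2, -1.01 for Fn1, 0.51 for Cd4 and -0.67 for Blnk, in the same order of lists. No gene of these 4 lists passed the threshold of the study or separated the ages.

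Signals between immune cells were also mixed. The median was -0.20 over 25 chemokine genes, -0.55 over 18 cytokine and receptor genes, -0.35 over 20 complement genes and -0.26 over 24 interferon-stimulated genes. None passed the threshold of the study. Without rat 1 of the 22-month group the median was -1.73 for chemokines and -1.77 for interferon-stimulated genes, and without rat 2 of that group it was 0.25 for interferon-stimulated genes. It was 0.27 for chemokines without rat 2 of the 13-month group. Cytokine and complement genes had medians of -1.07 and -1.02 without rat 1 of the 22-month group and of -0.24 and -0.0321 without rat 2 of that group, so the size of both depended on which older rat was left out. Il6 alone separated the ages, with 0.248, 0.315 and 0.177 CPM at 13 months and 0.620, 0.474 and 0.716 at 22 months, a log2 fold change of 1.28. It was higher in every older rat at a very low level. Cxcl13 was at 129.4, 654.3 and 157.4 at 13 months and 1253, 1.29 and 289.7 at 22 months. The older rats spanned the whole range of Cxcl13. The remaining members with the smallest p or the most reads overlapped as well, with log2 fold changes of 0.65 for Cxcl12, -0.48 for Csf1, -0.21 for C3, -0.50 for Irf1 and 0.27 for Ifi27. C2 had -1.34 in the entry with the smallest p and -0.75 in another entry of that name.

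All 19 cell cycle genes tested were lower in sign, with a median of -0.92 and a contralateral median of -0.90. The ICH median was -0.45 without rat 1 of the 13-month group and -1.58 without rat 1 of the 22-month group. The list summed to 592.9, 471.7 and 151.3 CPM at 13 months and 369.9, 86.2 and 258.2 at 22 months (exact permutation p 0.5), and no member separated the ages. Pcna, with both the smallest p and the most reads of the list, had a log2 fold change of -0.51. Mki67, chosen after its values were seen, was at 50.7, 57.7 and 8.98 at 13 months and 36.6, 2.50 and 21.8 at 22 months. Rat 3 of the younger group and rat 2 of the older group were low. In the senescence list of 11 genes the median was -0.64, and it was -0.79 without rat 3 of the 13-month group and -0.36 without rat 2 of the 22-month group. Igfbp5, the most read of them, was at 0.28 in log2 with overlap. Cdkn1a was at 32.9, 29.0 and 21.6 at 13 months and 19.7, 13.3 and 20.8 at 22 months, a log2 fold change of -0.64. All older rats were below the younger rats in Cdkn1a, by a small margin for rat 3 of each age.

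Genes of the extracellular matrix and scar were lower in sign in 19 of 20 cases, with a median of -0.83 and 0 past the threshold of the study. Sparc, which supplied 57.7% of the summed level, was nearly equal between the ages, with a log2 fold change of 0.00 and overlap. Plau, the member with the smallest p, was at 31.2, 31.1 and 2.24 CPM at 13 months and 7.19, 1.25 and 5.55 at 22 months, a log2 fold change of -2.20. Rats 1 and 2 of the younger group were high, and rat 3 was among the older rats. Leaving out rat 3 of the 13-month group put 9 members of the list past the threshold of the study with a median of -1.25, and without rat 1 of that group the median was -0.52. Reactive astrocyte genes had a median of -0.46 over 21 genes, of which 19 were negative, and of -1.14 without rat 1 and -0.0633 without rat 2 of the 22-month group. Among these, Emp1 had the smallest p and a log2 fold change of -1.59 with overlap. Gfap was at 4761, 3005 and 1741 at 13 months and 3718, 1347 and 3292 at 22 months, a log2 fold change of -0.19 with overlap.

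Genes for the handling of heme and iron, which blood in the tissue calls for, were mostly lower in sign. Of 25 tested, 21 were negative, with a median of -0.22 and 0 past the threshold of the study, and none separated the ages. The median was -0.52 without rat 3 of the 13-month group and -0.13 without rat 2 of the 22-month group. Fth1, which supplied 41.8% of the summed level, had a log2 fold change of -0.15. The iron uptake receptor Tfrc was at 381.1, 396.8 and 86.9 CPM at 13 months and 129.4, 74.5 and 97.6 at 22 months, a log2 fold change of -1.52. Rats 1 and 2 of the younger group were above the rest, and rat 3 was not. The 9 genes of hemoglobin and the erythroid line had a median of -0.03, which became -0.27 without rat 2 and 0.23 without rat 3 of the 22-month group. Of these, Epb42 had the smallest p and was higher in every older rat (1.06) at less than 1 CPM.

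Choroid plexus genes were lower in the older ICH tissue. All 13 tested were negative, with a median of -1.74, and 5 did not overlap between the ages, but 0 passed the threshold of the study. Among all genes tested, 2.76% were lower in every older rat. The list summed to 1524, 2184 and 2538 CPM at 13 months and 194.2, 14.5 and 1243 at 22 months (exact permutation p 0.1). All older rats were below all younger rats, and rat 3 of the older group was close to them. Without that rat the median was -3.70 and 11 of the 13 passed the threshold of the study, and without rat 2 of the older group the median was -1.18. Ttr supplied 84.3% of the sum and was at 1315, 1845 and 2164 at 13 months and 154.4, 1.29 and 1009 at 22 months, a log2 fold change of -2.19. Steap1, the member with the smallest p, was at 2.06, 3.08 and 1.99 at 13 months and 0.547, 0.129 and 1.29 at 22 months, a log2 fold change of -1.84. Neither gene overlapped. The contralateral median was -0.13. Contralateral sums were 127.4, 234.8 and 124.4 CPM at 13 months and 17.4, 68.1 and 314.9 at 22 months. Rats 1 and 2 of the older group were below all younger rats there, and rat 3 was above them. How much choroid plexus entered each sample was not recorded. Ependymal genes had a median of -0.75 over 11 genes, and of -1.66 without rat 3 and -0.48 without rat 2 of the 22-month group. Pifo (-1.43), with the smallest p, and Rarres2 (-0.25), with the most reads, overlapped. Ttr also made up 99.2% of the summed liver list, whose median over 9 genes was 0.21 and whose only member past the threshold of the study was Serpina1 (log2 fold change 1.05). The liver median was -0.0688 without rat 2 and 0.99 without rat 1 of the 13-month group.

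The medians of genes of resting glia and of vessels were close to that of all genes. The median was 0.14 over 14 astrocyte genes, 0.04 over 17 oligodendrocyte genes, 0.01 over 11 oligodendrocyte precursor genes, -0.05 over 19 endothelial genes and 0.03 over 17 genes of mural cells and fibroblasts. It was -0.10 over 15 genes of the heat shock and unfolded protein response. With 1 library left out the medians stayed between -0.31, of the heat shock list without rat 1 of the 22-month group, and 0.20, of oligodendrocytes without that rat, and those of 3 lists (both of the oligodendrocyte line and that of mural cells) took either sign. Members with the smallest p were Aldh1l1 (0.52), Opalin (0.54), C1ql1 (0.53), Vwf (-0.56), Ptgds (described below) and Atf3 (-0.98), in the order of the lists. Those with the most reads were Glul (-0.16), Mbp (0.25), Bcas1 (0.08), Slc2a1 (-0.05), again Ptgds, and Hsp90b1 (-0.12). All of these but Ptgds overlapped between the ages. Over the whole lists, 3 of the 17 genes of mural cells and fibroblasts (Ptgds, Col1a2 and Slc6a13) were higher in every older rat. So were 1 of the 14 astrocyte genes and 1 of the 11 precursor genes, and no gene of these lists was lower in every older rat. Of all genes tested, 5.19% were higher and 2.76% lower in every older rat. Col1a2 (1.06) and Slc6a13 (0.83) are named after their values were seen. Col1a2 was at a very low level, 0.01 to 0.04 FPKM in ICH tissue, and its difference was 0.23 on log2(CPM + 0.5). No gene of these 6 lists passed the threshold of the study.

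**Figure D5:**
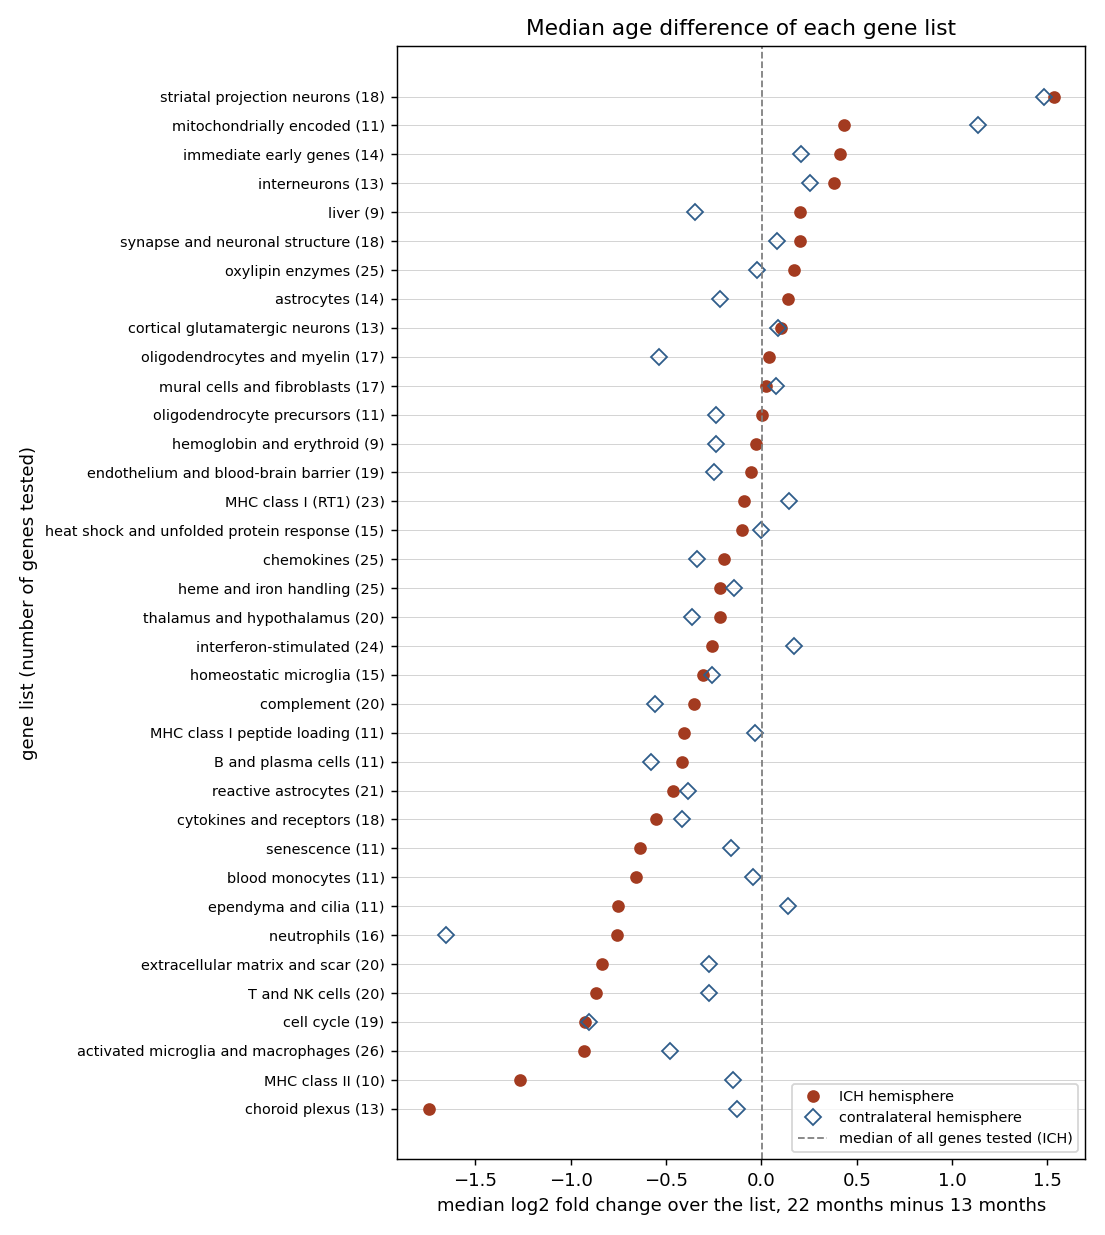
Median log2 fold change between the ages of each of 36 gene lists in the ICH (circles) and contralateral (diamonds) hemisphere. The dashed line is the median of all genes tested.

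All 11 mitochondrially encoded genes tested were higher in sign at 22 months, with a median of 0.43, and 3 did not overlap. Among all genes tested, 5.19% were higher in every older rat. The median of the list was 0.27 without rat 1 and 0.59 without rat 3 of the 13-month group. Mt-co1, the most read, did not overlap (0.22), while Mt-nd4, with the smallest p, did (0.64). For Mt-co1 the highest younger rat was at 30520 CPM and the lowest older rat at 30530. The share of reads from the mitochondrially encoded genes was 7.06, 7.52 and 9.20% at 13 months and 8.76, 11.02 and 10.51% at 22 months. Rat 3 of the younger group was above rat 1 of the older group, so the shares overlapped. Without the mitochondrially encoded genes, 77 genes passed the threshold of the study.

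Among 25 genes of oxylipin enzymes, 14 were positive and the median was 0.17, which became -0.0935 without rat 1 of the 22-month group. Summed levels were 892.3, 778.4 and 879.9 CPM at 13 months and 1189, 1413 and 1260 at 22 months (exact permutation p 0.1), without overlap. Most of this came from the prostaglandin D synthase gene Ptgds, which supplied 72.3% of the sum. Ptgds was at 542.5, 452.0 and 641.6 at 13 months and 859.7, 1177 and 964.0 at 22 months. The log2 fold change of Ptgds was 0.87 (SE 0.20) with an edgeR adjusted p of 0.902. That adjusted p ran from 0.0326 to 1.00 over the alternatives and the fits that left out 1 library. Every older rat was above every younger rat, in ICH and in contralateral tissue (contralateral 1.14). Ptgds is also read in meninges, and the share of meninges in the samples was not recorded.

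Among the other oxylipin genes the log2 fold change was -0.22 for Ptgs1, 0.12 for Ptgs2, -0.62 for Alox5ap and -0.33 for Pla2g4a. It was 0.53 for Cyp26b1, -0.49 for Cyp1b1 and -0.07 for Ephx2. The ages overlapped in all 7 genes. Cyp2d3 was at 15.4, 0.140 and 0.0355 CPM at 13 months and 10.2, 2.76 and 9.49 at 22 months, a log2 fold change of 0.53 that became 6.31 without rat 1 of the younger group. Contralateral values of Cyp2d3 were 1.05, 0.01 and 0 FPKM at 13 months and 0.56, 0.55 and 0.64 at 22 months. Rats 2 and 3 of the younger group were thus the lowest in both hemispheres. Whether Cyp2d3 differs between the rats in sequence or copy number was not tested. Ltc4s, chosen after its values were seen, was at 1.70, 2.28 and 2.41 at 13 months and 2.88, 5.68 and 6.34 at 22 months, a log2 fold change of 1.22 without overlap. No enzyme of the list passed the threshold of the study.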

How the data were processed

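According to the deposited methods, reads were trimmed with Cutadapt and aligned to the rat assembly Rnor_6.0 with TopHat2, and reads that matched several places were discarded. The count table holds uniquely located reads per gene as deposited by the authors, and was used without other change. The FPKM table, with 24099 genes, was deposited by the authors with values already scaled for the length of a gene and the depth of a library. The submitters' notes also name bcl2fastq and edgeR. The counting tool and the use of strand were not given in the sources used here, so reads of overlapping antisense genes cannot be assigned. The 4 columns of a replicate 4 in each table (8 in all) had no sample entry and were left out.

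Genes with at least 10 reads over the 6 ICH samples were tested on counts with the quasi-likelihood test of edgeR 4.0.16, with TMM scaling and p adjusted over all genes tested. The contralateral and interaction contrasts came from a fit of 4 group means to all 12 samples. Alternatives used DESeq2 1.42.0, limma 3.58.1 and the exact test of edgeR, under R 4.3.3. Figures were drawn with matplotlib 3.10.9 under Python 3.11.15. The tests were tested on simulated data, where the share of unchanged genes among the genes called was largest for DESeq2 and the exact test of edgeR. In both it was above the share that their threshold allows. The simulated counts took their spread from edgeR, which may differ from that of the data, so the calls in the data are not judged by it. Exact permutation tests compared 3 against 3 samples on log2(CPM + 0.5). That the 2 hemispheres of a number came from the same rat was checked by their correlation after group means were removed (r 0.0760 to 0.381, mean 0.232 over 14465 genes). For 5 of the 6 ICH samples the contralateral sample of the same number had the highest r of its age, but ICH rat 2 at 13 months had 0.0760 with its own number and 0.0775 with rat 1, so the check does not bear out that pair.

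The genes named were chosen by a rule. It took genes with an adjusted p under 0.05 (none), then genes with a mean CPM of at least 1 that passed the threshold of the study and did not overlap between the ages (39 higher and 12 lower, of which the 6 with the smallest p each way), then the member with the most reads and the member with the smallest p of each of 36 lists, and last 8 oxylipin genes. Genes named outside this rule are stated to be chosen after their values were seen, or are named only for their promoter or because they passed in contralateral tissue. Members and lists were chosen with earlier results from these data known.

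With 3 rats per age, only large differences are within reach of the tests, and the smallest exact p is 0.1. Age cannot be told apart from descent or the day of operation, which were not given. The region sampled was not given either. Standard errors are those of edgeR and include variation between rats, while the floor of 3 reads and the interval of Rps2-ps2 cover counting error only. Reads of RT1 genes, other gene families and pseudogenes are uncertain, as reads that matched several places were discarded. Promoters were taken from another assembly than the counts. Levels were measured as RNA only, at a single time after ICH.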

Additional observations from a re-analysis of the deposited data

Results flagged for a closer look

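In 1 of the 126 named genes examined, every rat of one age moved one way between the hemispheres and every rat of the other age moved the opposite way. The gene was Opalin, of oligodendrocytes. The log2 level in ICH minus contralateral tissue was -0.12, -0.69 and -0.19 at 13 months (mean -0.33) and 0.19, 0.17 and 0.33 at 22 months (mean 0.23), a gap of 0.564 between the ages. The largest of these values, -0.69, was of rat 2 at 13 months, whose contralateral library stood apart with 0.789% of reads from mitochondrially encoded genes. The difference by that rule was not tested, and the ICH and contralateral levels were scaled in separate sets. In edgeR the interaction of age and hemisphere for Opalin was 0.55 in log2 with an adjusted p of 1.00. CPM in ICH tissue were 99.5, 93.1 and 136.6 at 13 months and 97.7, 154.1 and 225.4 at 22 months, with overlap. Groups of 3 samples were not tested for outliers.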

How the results depend on the processing

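Genes between the ages in ICH tissue at an adjusted p under 0.05 numbered 0 in the 6-sample edgeR fit. There were 6 in the 12-sample fit, 41 with DESeq2 and 38 with the exact test of edgeR. There was 1 with no filter beyond 1 read, and there were 3 with limma on log2(FPKM + 1) and 5 on log2(FPKM + 0.1). Leaving out 1 library at a time gave 0 to 1, the 1 being AABR07027388.1 without rat 1 of the 13-month group. At the threshold of the study the 80 genes became 147 with DESeq2, 160 with the exact test of edgeR and 32 with limma on log2(FPKM + 1), and 40 to 218 when 1 library was left out. The other alternatives gave 66 to 114.

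Striatal members past that threshold (11) ranged from 5 to 12 when 1 library was left out. Class II members (2) ranged from 1 to 5, with 1 in the 12-sample fit. The 7 contralateral genes became 37 with DESeq2 and 2 to 4 with 1 library left out. The interaction gave 0 in every fit. The median of 14 of the 36 lists changed sign in some fit that left out 1 library.

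Of the values of single genes, 1392 kept their direction and side of the threshold over the alternatives, 66 became significant and 11 reversed. Of the reversals, 2 were of Cxcl13 with limma, at -1.30 on log2(FPKM + 1) and -1.64 on log2(FPKM + 0.1), against 0.71. Another 2 were of Bcas1 in the same fits, at -0.00739 and -0.00750 against 0.0802. The remaining 7 were of Sparc, whose main value was 0.00118, at -0.0231 in the 12-sample fit, -0.0125 with DESeq2 size factors and with DESeq2, -0.0879 and -0.0882 in the 2 limma fits, -0.000205 with the replicate block and -0.0111 without mitochondrially encoded genes. With 1 library left out, 698 stayed the same, 1 became significant and 39 changed sign. Ranges of the genes that changed sign were -1.12 to 0.0236 (RT1-A2), -2.64 to 0.11 (Lcn2), -1.14 to 1.82 (Cxcl13), -1.31 to 0.34 (C3), -0.48 to 0.21 (Gfap), -0.13 to 0.40 (Ptgs2), -0.73 to 0.0741 (Pla2g4a), -0.0670 to 6.31 (Cyp2d3), -0.48 to 0.13 (Fth1), -0.0258 to 0.35 (Foxp1), -5.99 to 1.94 (Avp), -8.20 to 2.68 (Oxt), -0.0619 to 0.28 (Slc17a7), -0.0443 to 0.51 (Igfbp5), -0.0846 to 1.08 (Egr1), -0.0176 to 0.46 (Snap25), -0.31 to 0.0105 (Hsp90b1), -0.36 to 0.0714 (Glul), -0.49 to 0.0320 (Calr), -0.41 to 0.71 (Ifi27), -0.65 to 0.18 (Rarres2), -0.21 to 0.32 (Bcas1), -0.23 to 0.0850 (Slc2a1), -0.0862 to 0.14 (Sparc) and -0.89 to 1.56 (Tap2).

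With the replicate number as a replicate block, 0 genes passed an adjusted p under 0.05 (583 unadjusted) and 66 the threshold of the study, of which 38 were among the 80 without the block. Rats of the same number at the 2 ages are different animals, and their mean correlation was -0.0672, against 0.0482 for other pairs. With the rat as replicate block, the interaction gave 0 genes.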

Other observations

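Some genes past the threshold of the study were high in only 2 of the 3 rats of an age, alike in both hemispheres of these rats. They were chosen after their values were seen. AABR07027388.1, a pseudogene on chromosome 17, was at 0.568, 61.4 and 85.3 CPM in ICH tissue at 13 months and at 0.766, 1.033 and 0.716 at 22 months. Contralateral values were 0.459, 80.0 and 77.1 at 13 months and 0.966, 0.986 and 0.447 at 22 months. It was high in rats 2 and 3 of the younger group in both hemispheres and near 1 or below in all other samples.

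Asb15, on chromosome 4, was at 0.0710, 0.210 and 0.0355 CPM in ICH tissue at 13 months and at 0.0730, 17.3 and 15.5 at 22 months. Contralateral values were 0.191, 0.103 and 0.383 at 13 months and 0.201, 18.3 and 19.7 at 22 months. Rats 2 and 3 of the older group held nearly all of the reads. Il9r, on chromosome 10, was at 0.887, 0.771 and 0.923 in ICH tissue at 13 months and at 7.45, 1.033 and 5.37 at 22 months. Contralateral values were 0.726, 0.448 and 1.10 at 13 months and 5.75, 1.24 and 6.92 at 22 months. Rats 1 and 3 of the older group were high in both hemispheres, and rat 2 was only just above the younger rats. Whether these genes differ between the rats in sequence or copy number was not tested.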
